A study of Homo sapiens with 12 samples.

Results

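Receptor tyrosine kinases outside the ERBB family were followed across 2 prostate cancer cell lines that carried ETV4 constructs. The 48 genes were listed by name, and all 48 were found among the 58302 genes of the count table. Of these, 44 had enough reads to be tested. The listed genes cover the TAM, MET, insulin, PDGF, VEGF, FGF, TRK, ROR, DDR, TIE and EPH families, with RET, ALK, LTK, ROS1, PTK7, RYK and MUSK.

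These receptors span the cell membrane. A ligand outside the cell, most often a growth factor, a membrane-bound ephrin or collagen, brings receptor chains together, and their kinase domains then add phosphate to tyrosines that recruit adaptor proteins and start the RAS-ERK and PI3K cascades. PTK7, RYK, EPHA10 and EPHB6 have kinase domains with little or no activity. ETV4 is an ETS transcription factor of the PEA3 group that binds DNA around a GGAA core and is known as a downstream effector of ERK signalling.

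RNA was measured in 6 groups of 2 libraries. In 22Rv1, an androgen receptor-expressing line grown from a prostate cancer xenograft, the groups were ETV4AAA, ETV4WT and eGFP. In PC3, grown from a prostate cancer metastasis in bone and without androgen receptor signalling, they were again ETV4AAA, ETV4WT and eGFP. Per the labels, ETV4AAA is a mutated ETV4 and ETV4WT is the wild-type protein. Both were delivered by lentivirus from an MSCV-IRES-GFP vector and thus with eGFP on the same transcript, and the eGFP groups received the vector without ETV4. Cells that were eGFP-positive and DAPI-negative were sorted 1 week after infection. All groups therefore share the infection, the sort and eGFP, and each line is a single established line. The labels do not say that the 2 libraries of a group came from separate cultures, so p-values measure only the spread between these libraries, which may be technical.

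Library totals lay between 41698738 and 51199207 counts. ETV4 had 390 and 281 counts per 1000000 scaled library counts (CPM) in 22Rv1 ETV4AAA and 385 and 484 CPM in 22Rv1 ETV4WT, against 31.2 and 24.9 CPM in 22Rv1 eGFP. In PC3 it had 223 and 109 CPM in the libraries labelled ETV4AAA and 215 and 112 CPM in those labelled ETV4WT, against 116 and 126 CPM in eGFP. The second library of each PC3 construct group was thus no higher than eGFP, and neither PC3 difference passed (log2 change 0.46 ± 0.33 SE, adjusted p = 0.495 for ETV4AAA; 0.43 ± 0.33 SE, adjusted p = 0.384 for ETV4WT). Results in PC3 are therefore results of libraries labelled with a construct. Of 10 luminal prostate markers none was at 0 in 22Rv1, while KLK2, KLK3, TMPRSS2 and FOLH1 were at 0 in PC3 eGFP. Markers of immune cells summed to under 1 CPM in every library.

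Promoter windows of 3 genes that carry results given further on are shown, chosen with their matches known. EPHB1 and TIE1 were higher with ETV4AAA in 22Rv1 and with ETV4WT in PC3, and FLT1 was higher with ETV4WT in PC3. KIT and PTK7, also higher in both comparisons, have windows with 0 matches to CGGAAG and 0 to AGGAAG, and FLT4, higher in both as well, was not searched. Each window is RefSeq sequence of build GRCh38.p14, written 5′ to 3′ on the strand of the gene, and runs from upstream of the annotated start to just past it. Capitals mark CGGAAG or AGGAAG, or the reverse complements CTTCCG or CTTCCT, which are ETS-type letters. The windows are chr3:134795010-134795309 on the plus strand for EPHB1, chr1:43300732-43301031 on the plus strand for TIE1 and chr13:28495079-28495378 on the minus strand for FLT1.
EPHB1: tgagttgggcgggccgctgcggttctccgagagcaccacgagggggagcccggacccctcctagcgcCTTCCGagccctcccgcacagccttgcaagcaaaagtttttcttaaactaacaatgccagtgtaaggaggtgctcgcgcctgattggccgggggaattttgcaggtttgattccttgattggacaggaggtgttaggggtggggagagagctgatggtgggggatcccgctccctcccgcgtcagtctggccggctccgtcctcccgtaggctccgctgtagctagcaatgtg
TIE1: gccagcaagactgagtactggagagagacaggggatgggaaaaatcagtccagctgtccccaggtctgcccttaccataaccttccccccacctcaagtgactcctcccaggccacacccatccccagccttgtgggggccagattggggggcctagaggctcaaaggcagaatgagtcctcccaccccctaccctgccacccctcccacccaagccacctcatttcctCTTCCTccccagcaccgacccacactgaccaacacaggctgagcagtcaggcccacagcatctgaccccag
FLT1: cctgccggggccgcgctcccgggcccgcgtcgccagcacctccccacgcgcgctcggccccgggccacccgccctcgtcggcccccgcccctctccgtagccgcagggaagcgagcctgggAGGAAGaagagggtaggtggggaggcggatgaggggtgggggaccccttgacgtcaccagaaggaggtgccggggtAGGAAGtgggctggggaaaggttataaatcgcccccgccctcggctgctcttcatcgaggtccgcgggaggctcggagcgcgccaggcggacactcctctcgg
EPHB1 holds 1 such match, TIE1 holds 1 and FLT1 holds 2. A window was found for 44 of the 48 genes. CGGAAG, searched on both strands, occurred in 3 of the 44 (EPHB1, MST1R and LTK) and in 19.5% of all 35116 promoter windows of that length. AGGAAG occurred in 9 of the 44 and in 33.6% of all windows. The longer CCGGAAGT, which contains CGGAAG, occurred in 0 of the 44 and in 4.14% of all windows, and GGAA alone, which all the others contain, occurred in 41 of the 44 and in 95.5% of all windows. A match is a run of letters and not a measured binding site.

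The receptor genes differed widely in level, and the highest ones were not the same in the 2 lines. Scaled by exon length, DDR1, a collagen receptor, was highest in all 3 groups of 22Rv1, at 47.8 ± 8.04 CPM per kilobase in ETV4AAA, 35.9 ± 4.64 in ETV4WT and 35.3 ± 6.45 in eGFP (SD, n = 2 each). In PC3 the highest was MET, the receptor of hepatocyte growth factor, at 72.8 ± 8.09 CPM per kilobase in ETV4AAA, 71.4 ± 11.8 in ETV4WT and 72.8 ± 1.17 in eGFP (SD, n = 2 each). EPHA2, an ephrin-A receptor, was second in all 3 groups of PC3, at 48.8 ± 3.16 CPM per kilobase in eGFP (SD, n = 2). In 22Rv1 EPHA2 was second only in ETV4AAA, at 24.5 ± 5.82 CPM per kilobase, and was close to EPHB4 there, at 20.4 ± 4.3 (SD, n = 2 each). EPHB4 was second in the other two 22Rv1 groups, at 13.7 ± 1.8 CPM per kilobase in ETV4WT and 11.4 ± 2.42 in eGFP (SD, n = 2 each).

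Group means of at least 1 CPM were reached by 27 of the 48 genes in 22Rv1 ETV4AAA, 22 in 22Rv1 ETV4WT and 24 in 22Rv1 eGFP. In PC3 the numbers were 29 in ETV4AAA, 32 in ETV4WT and 29 in eGFP. The summed level of all 48 was 1520 and 1230 CPM in 22Rv1 ETV4AAA, above the 796 and 930 CPM of ETV4WT and the 954 and 794 CPM of eGFP in that line. In PC3 it stayed between 1400 and 1520 CPM in all 6 libraries. The 4 genes that did not pass the filter were LTK with 0 to 12 counts per library, INSRR, a relative of the insulin receptor, with 0 to 11, FLT3 with 0 to 4, and NTRK3, the neurotrophin-3 receptor, with 0 or 1.

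**Figure D1:**
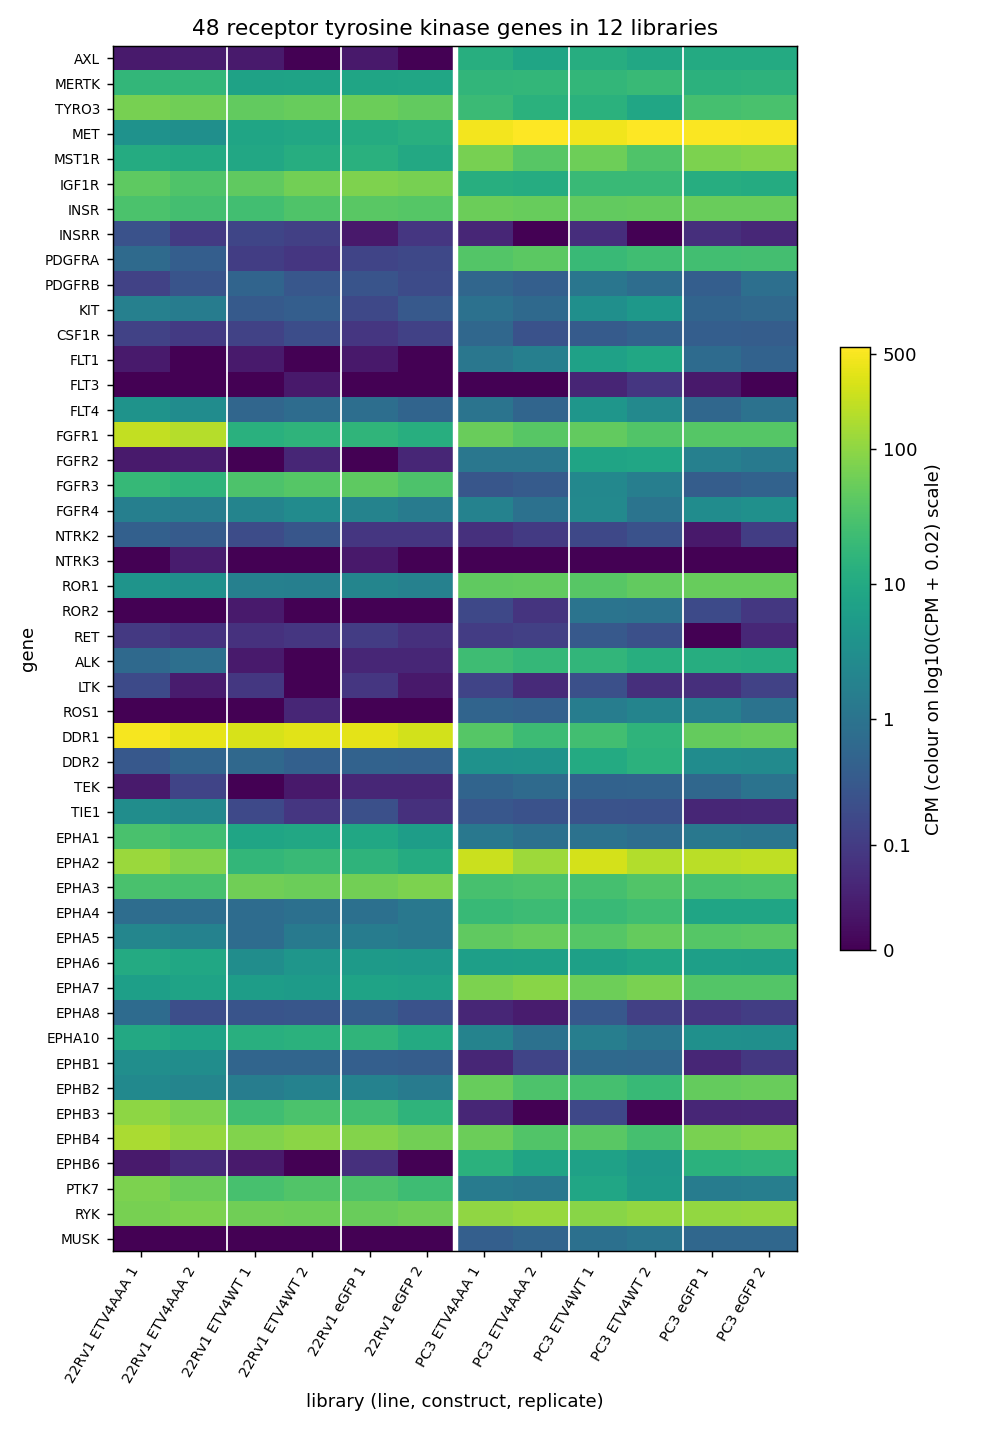
Level of each of the 48 genes (rows) in each of the 12 libraries (columns), as CPM on a log10(CPM + 0.02) colour scale; columns run ETV4AAA, ETV4WT, eGFP within 22Rv1 (left of the thick line) and within PC3 (right). MET and EPHA2 are bright across PC3, DDR1 across 22Rv1, and FGFR1, EPHA2 and EPHB3 are brighter in the 22Rv1 ETV4AAA columns than in the other 22Rv1 columns.

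The eGFP libraries gave the difference between the lines without ETV4 constructs. Of the 44 genes tested with edgeR's quasi-likelihood test (adjusted p under 0.05, by Benjamini-Hochberg across every gene tested), 11 were higher and 27 lower in 22Rv1 than in PC3. Of all 23238 genes tested, 34.9% were called higher and 36% lower. The median log2 difference was -1.3 over the receptor genes and 0 over all genes. ROR2, ROS1 and MUSK, which had 0 counts in 22Rv1 eGFP, also lie below that median when set at their bounds. In bulk RNA, fewer cells that express a gene and less RNA per cell cannot be told apart.

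The receptors higher in 22Rv1 included a fibroblast growth factor receptor, the receptor of the insulin-like growth factors and several ephrin receptors. FGFR3 had 44.1 and 32.2 CPM in 22Rv1 eGFP, against 0.382 and 0.473 CPM in PC3 eGFP (log2 difference 6.47 ± 0.29 SE, adjusted p = 1.94e-09). IGF1R, the insulin-like growth factor receptor, had 76.6 and 67.6 CPM in 22Rv1 and 11.7 and 11 CPM in PC3 (2.67 ± 0.19 SE, adjusted p = 1.01e-07). EPHB3 had 25.7 and 15.8 CPM in 22Rv1 and 0.0403 and 0.043 CPM in PC3 (8.88 ± 0.61 SE, adjusted p = 7.49e-08). In these 3 genes the lines lay far apart and did not overlap. PTK7, a co-receptor of Wnt signalling, had 31.8 and 22.9 CPM in 22Rv1 and 1.43 and 1.55 CPM in PC3. DDR1 had 364 and 280 CPM in 22Rv1 and 50.4 and 54.3 CPM in PC3 (2.62 ± 0.28 SE, adjusted p = 3.57e-06). EPHA1, EPHA3 and EPHA10 were also called higher, with 5.99 to 8.76, 63.1 to 73.3 and 10.3 to 16 CPM in 22Rv1, against 1.05 to 1.17, 28.1 to 29.7 and 3.25 to 3.38 CPM in PC3. TYRO3, a TAM receptor, had 57.2 and 47.7 CPM in 22Rv1 and 27 and 29.1 CPM in PC3 (0.9 ± 0.24 SE, adjusted p = 0.00467). EPHB1 and EPHA8 were called higher at under 1 CPM in both lines.

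The receptors lower in 22Rv1 included both MET-family members and 2 of the 3 TAM receptors. MET had 11.1 and 12.9 CPM in 22Rv1 eGFP, against 519 and 507 CPM in PC3 eGFP (-5.42 ± 0.17 SE, adjusted p = 1.33e-10). MST1R, the receptor of macrophage-stimulating protein, had 13.5 and 9.82 CPM in 22Rv1 and 75.2 and 83.4 CPM in PC3 (-2.76 ± 0.3 SE, adjusted p = 5.27e-06). AXL, a TAM receptor for GAS6, had 1 count in all in the 22Rv1 eGFP libraries and 1011 in the PC3 eGFP libraries, a ratio of PC3 over 22Rv1 of 1020 (95% interval 183 to 40400, exact, counting error only). MERTK, which binds GAS6 and PROS1, had 8.08 and 8.71 CPM in 22Rv1 and 14.4 and 15 CPM in PC3 (-0.81 ± 0.14 SE, adjusted p = 0.000305). All 4 were lower in both 22Rv1 libraries than in either PC3 library, and the difference was smallest for MERTK. Among the growth factor receptors, PDGFRA had 0.144 and 0.165 CPM in 22Rv1 and 25.2 and 25.8 CPM in PC3 (-7.35 ± 0.27 SE, adjusted p = 3.32e-10). FGFR1 had 16.4 and 12.4 CPM in 22Rv1 and 37.7 and 38.3 CPM in PC3 (-1.4 ± 0.21 SE, adjusted p = 6.5e-05). ALK had 0.041 and 0.0412 CPM in 22Rv1 and 11.6 and 11.1 CPM in PC3. ROR1, which binds WNT5A, had 2.09 and 1.75 CPM in 22Rv1 and 51.9 and 51.7 CPM in PC3 (-4.75 ± 0.18 SE, adjusted p = 5.22e-10).

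The EPH family was split between the lines, with 6 of its 14 genes higher and 6 lower in 22Rv1. EPHA2 had 15.4 and 11 CPM in 22Rv1 and 194 and 212 CPM in PC3 (-3.94 ± 0.35 SE, adjusted p = 7.43e-07). EPHB2 had 1.85 and 1.4 CPM in 22Rv1 and 50.2 and 54.7 CPM in PC3, and EPHA5 had 1.44 and 1.19 CPM in 22Rv1 and 37.8 and 40.1 CPM in PC3. EPHA7 had 7.47 and 7.04 CPM in 22Rv1 and 35.8 and 36 CPM in PC3, and EPHA4 had 0.841 and 1.19 CPM in 22Rv1 and 8.35 and 8.38 CPM in PC3. EPHB6 had 3 counts in 22Rv1 and 1397 in PC3, a ratio of PC3 over 22Rv1 of 471 (95% interval 161 to 2290). EPHB4 did not pass, at 84.5 and 62.5 CPM in 22Rv1 and 72.2 and 79.2 CPM in PC3 (-0.04 ± 0.25 SE, adjusted p = 0.89), and neither did EPHA6, at 5.33 and 5.17 CPM in 22Rv1 and 6.48 and 6.28 CPM in PC3 (adjusted p = 0.216). RYK, a Wnt receptor, had 53.1 and 61 CPM in 22Rv1 and 108 and 111 CPM in PC3 (-0.94 ± 0.13 SE, adjusted p = 2.79e-05). INSR, the insulin receptor, had 40.7 and 37.6 CPM in 22Rv1 and 53.7 and 54.4 CPM in PC3 (-0.47 ± 0.15 SE, adjusted p = 0.0139).

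The other genes called lower were at or below 3.37 CPM in every eGFP library. FGFR2 had 2 counts in 22Rv1 and 146 in PC3 (PC3 over 22Rv1 73.8, 95% interval 20.1 to 616), and FLT1, a VEGF receptor, had 1 and 57 (57.7, 95% interval 9.94 to 2320). ROS1, ROR2 and MUSK, the agrin-responsive receptor of the neuromuscular junction, had 0 counts in 22Rv1. With 3 counts over the group taken as the floor, they were at least 43.5-fold, 4.38-fold and 18.9-fold lower there. FGFR4, PDGFRB, KIT, CSF1R, DDR2 and TEK were also called lower. With upper-quartile scaling the median of all genes shifted by 0.339, and 59.4% of all calls were higher in place of 49.2%. INSR then stood at -0.13 (adjusted p = 0.464), FGFR4 at -0.57 (adjusted p = 0.156) and KIT at -0.87 (adjusted p = 0.0621). Calls were lost without single libraries for FGFR4 (any of the 4, adjusted p 0.0707 to 0.239), INSR (22Rv1 eGFP replicate 2 or either PC3 eGFP library, 0.0543 to 0.0742), EPHA8 (22Rv1 eGFP replicate 1 or either PC3 eGFP library, 0.0908 to 0.206), KIT (22Rv1 replicate 1, 0.113; PC3 replicate 2, 0.0699), PDGFRB (22Rv1 replicate 2, 0.111; PC3 replicate 2, 0.207) and TYRO3 (22Rv1 replicate 1, 0.055). The log2 difference of EPHB1 was 2.67 with all libraries and 3.26 without PC3 eGFP replicate 2. With an offset for GC content, chosen after seeing the data, RYK stood at -0.29 and 16 of the 38 called genes moved by over 1.5 times. Besides RYK these were ALK, DDR1, EPHA1, EPHA2, EPHA5, EPHA7, EPHA8, EPHA10, EPHB3, EPHB6, FGFR3, FGFR4, MST1R, PDGFRB and PTK7. EPHA8 (0.9, adjusted p = 0.157) and KIT (-0.77, adjusted p = 0.0779) lost their calls with the offset.

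**Figure D2:**
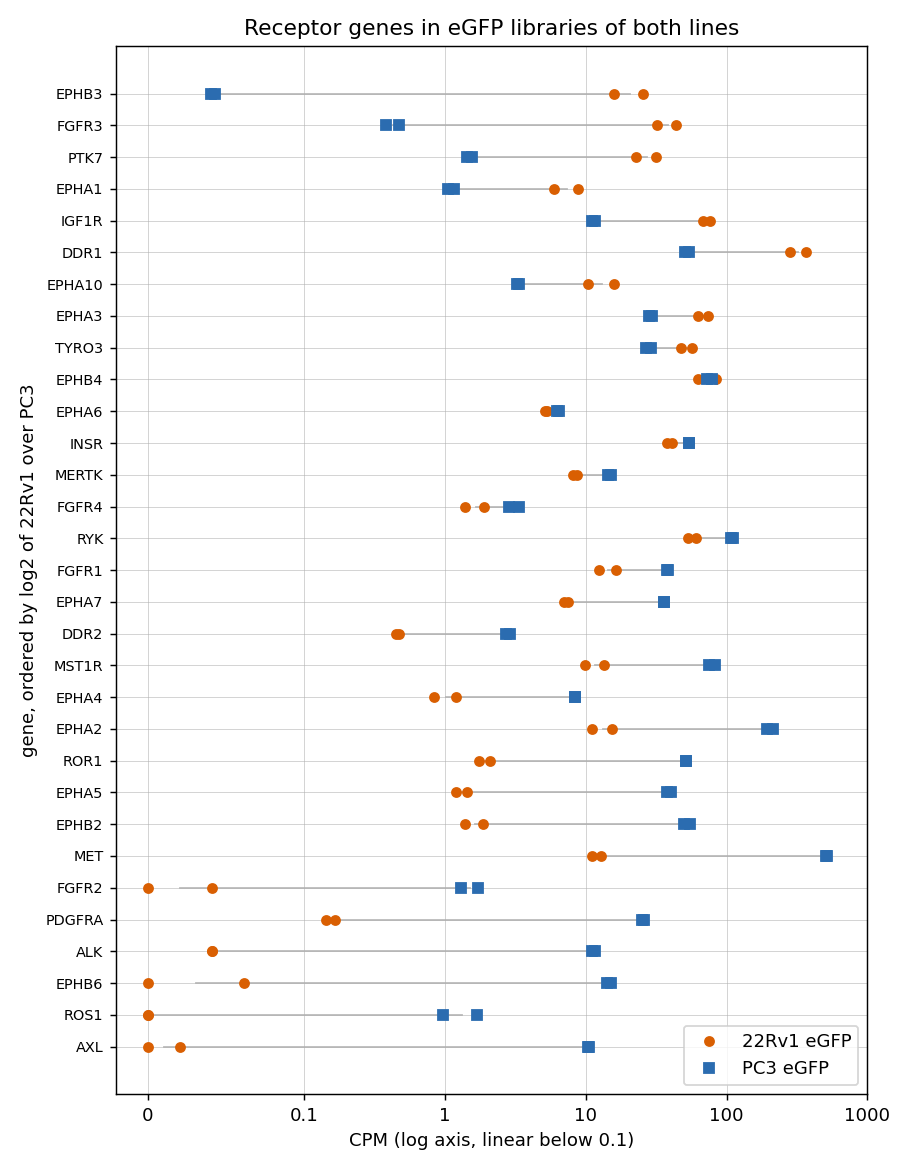
CPM (log axis, linear below 0.1) of receptor genes with a mean of at least 1 CPM in either eGFP group, ordered by the log2 difference of 22Rv1 over PC3; each symbol is 1 library, circles 22Rv1 eGFP and squares PC3 eGFP, joined by a line between group means. EPHB3, FGFR3 and PTK7 lie highest in 22Rv1 relative to PC3, EPHB4 overlaps, and MET, PDGFRA, ALK, EPHB6, ROS1 and AXL are far higher in PC3.

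In 22Rv1, ETV4AAA went with a broad change of receptor genes: FGFR1, EPHA2, EPHB3, EPHA1 and PTK7 rose at moderate levels, KIT, FLT4, TIE1, ALK and EPHB1 rose but stayed low, and MET, FGFR3, EPHA3 and IGF1R fell. Of the 44 genes tested against eGFP, 16 were higher and 5 lower. Of all genes tested, 17.4% were called higher and 14.4% lower. The median log2 change was 0.39 over the receptor genes, some of which have almost no counts in 22Rv1, and 0 over all genes.

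Within the FGF receptors the 2 genes with more than a few CPM moved in opposite directions. FGFR1 had 215 and 181 CPM in ETV4AAA, against 16.4 and 12.4 CPM in eGFP. Both ETV4AAA libraries were far above every other library of the study, PC3 included, where the highest had 53.8 CPM. The change was 13.8-fold (log2 3.78 ± 0.22 SE, adjusted p = 1.24e-07). FGFR3 had 18.7 and 15.9 CPM in ETV4AAA, against 44.1 and 32.2 CPM in eGFP (-1.14 ± 0.21 SE, adjusted p = 0.00156). FGFR4 had 1.64 and 1.54 CPM in ETV4AAA and 1.91 and 1.4 CPM in eGFP and did not pass, and FGFR2 had 1 count in each ETV4AAA library.

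The ephrin receptors, 14 of the 44 genes tested, contributed 6 of the 16 rises, which is close to their share of the list. EPHA2 had 119 and 84.7 CPM in ETV4AAA, against 15.4 and 11 CPM in eGFP (2.95 ± 0.34 SE, adjusted p = 3.58e-05). EPHB3 had 98.6 and 74.1 CPM in ETV4AAA and 25.7 and 15.8 CPM in eGFP (2.06 ± 0.34 SE, adjusted p = 0.000694). EPHA1 had 29.5 and 24.5 CPM in ETV4AAA and 8.76 and 5.99 CPM in eGFP (1.87 ± 0.22 SE, adjusted p = 4.03e-05). In all 3 the lowest ETV4AAA library lay well above the highest eGFP library. EPHB4 had 151 and 111 CPM in ETV4AAA and 84.5 and 62.5 CPM in eGFP (0.83 ± 0.26 SE, adjusted p = 0.0267). EPHA6 had 10.3 and 8.95 CPM in ETV4AAA and 5.33 and 5.17 CPM in eGFP (0.87 ± 0.19 SE, adjusted p = 0.00476). EPHB1 was low throughout, with 3.11 and 3.06 CPM in ETV4AAA and 0.431 and 0.391 CPM in eGFP (2.9 ± 0.27 SE, adjusted p = 5.59e-06). EPHA3 was the single EPH gene that fell, with 30.1 and 28.1 CPM in ETV4AAA and 63.1 and 73.3 CPM in eGFP (-1.23 ± 0.15 SE, adjusted p = 5.47e-05). EPHA7, at 6.57 and 7.64 CPM in ETV4AAA and 7.47 and 7.04 CPM in eGFP, and EPHA10, at 9.54 and 7.5 CPM in ETV4AAA and 16 and 10.3 CPM in eGFP, did not pass.

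TIE1, FLT4, KIT, ALK, PDGFRA and NTRK2 were low in 22Rv1 eGFP and higher in ETV4AAA, while TEK (adjusted p = 0.495), CSF1R (0.906), RET (0.992) and FLT1 (0.98), all at no more than 6 counts in any of these libraries, did not pass. TIE1, an endothelial receptor of the angiopoietin system, had 3.04 and 2.37 CPM in ETV4AAA and 0.226 and 0.0618 CPM in eGFP, which is 137 and 100 counts against 11 and 3 (4.21 ± 0.39 SE, adjusted p = 5.87e-06). FLT4, the VEGFC receptor of lymphatic endothelium, had 3.9 and 2.87 CPM in ETV4AAA and 0.8 and 0.515 CPM in eGFP (2.36 ± 0.37 SE, adjusted p = 0.000394). KIT, the stem cell factor receptor, had 1.71 and 1.47 CPM in ETV4AAA and 0.164 and 0.329 CPM in eGFP (2.68 ± 0.35 SE, adjusted p = 9.69e-05). None of these 3 reached 4 CPM, and in none did the groups overlap. ALK had 29 and 35 counts in ETV4AAA and 2 in each eGFP library (4.08 ± 0.48 SE, adjusted p = 5.02e-05). PDGFRA, which binds PDGFs, had 0.666 and 0.403 CPM in ETV4AAA and 0.144 and 0.165 CPM in eGFP (1.78 ± 0.33 SE, adjusted p = 0.00141). NTRK2, the BDNF receptor, had 0.444 and 0.356 CPM in ETV4AAA and 0.0821 and 0.0823 CPM in eGFP (2.25 ± 0.53 SE, adjusted p = 0.0066). A list of 7 endothelial markers summed to 6.03 and 6.31 CPM in ETV4AAA and to 0.39 and 0.226 CPM in eGFP. In eGFP 3 of the 7, PECAM1 and CDH5 among them, were at 0. The highest of the 7 in ETV4AAA, with a mean of 4.62 CPM, gave most of the sum there. The part of this list in these results was not tested.

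MET had 3.7 and 3.3 CPM in 22Rv1 ETV4AAA, against 11.1 and 12.9 CPM in eGFP (-1.78 ± 0.16 SE, adjusted p = 4.57e-06), while its relative MST1R, at 10.9 and 10.1 CPM in ETV4AAA and 13.5 and 9.82 CPM in eGFP, did not pass. IGF1R had 44.5 and 33.5 CPM in ETV4AAA and 76.6 and 67.6 CPM in eGFP (-0.89 ± 0.18 SE, adjusted p = 0.00251). INSR had 31.4 and 26.8 CPM in ETV4AAA and 40.7 and 37.6 CPM in eGFP (-0.43 ± 0.15 SE, adjusted p = 0.0468). All 3 were lower in both ETV4AAA libraries than in either eGFP library. MERTK had 17.5 and 17.9 CPM in ETV4AAA and 8.08 and 8.71 CPM in eGFP (1.07 ± 0.14 SE, adjusted p = 0.000138), and TYRO3, at 68.7 and 61.5 CPM in ETV4AAA and 57.2 and 47.7 CPM in eGFP, did not pass. PTK7 had 73.8 and 57.1 CPM in ETV4AAA and 31.8 and 22.9 CPM in eGFP (1.26 ± 0.24 SE, adjusted p = 0.00167). ROR1 had 3.97 and 3.44 CPM in ETV4AAA and 2.09 and 1.75 CPM in eGFP (0.95 ± 0.17 SE, adjusted p = 0.00124). DDR1, the most abundant receptor gene per kilobase, had 487 and 384 CPM in ETV4AAA and 364 and 280 CPM in eGFP and did not pass.

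Of the 16 genes higher in 22Rv1 ETV4AAA, ALK, EPHA2, FGFR1, KIT, MERTK, PDGFRA and ROR1 were lower in 22Rv1 eGFP than in PC3 eGFP. EPHA1, EPHB1, EPHB3 and PTK7 were higher there, and the others did not pass. Over all 44 tested receptor genes, 61.4% were lower and 25% higher. A list of 9 PC3 markers summed to 1190 and 1160 CPM in 22Rv1 ETV4AAA, against 449 and 386 CPM in 22Rv1 eGFP. CD44, the highest of the 9 in ETV4AAA, had 430 and 427 CPM there and 120 and 129 CPM in eGFP. The 10 luminal markers summed to 2010 and 1890 CPM in ETV4AAA and to 2860 CPM in each eGFP library. HOXB13, the highest of the 10, went the other way, with a mean of 806 CPM in ETV4AAA and 656 CPM in eGFP. AXL, with 8.15 to 12.5 CPM in every PC3 library, had 1 count in each 22Rv1 ETV4AAA library, and MET, the receptor gene with the highest level per kilobase in PC3, fell. The part of these marker lists in the results was not tested. The 16 genes higher in 22Rv1 ETV4AAA had a median GC content of 55.2%, against 48.2% for all genes called higher there. INSR lost its call without any 1 of the 4 libraries (adjusted p 0.053 to 0.225) and with DESeq2's Wald test (0.0648). EPHB4 lost it without ETV4AAA replicate 1 (0.24), eGFP replicate 1 (0.0524) or eGFP replicate 2 (0.232), and NTRK2 without ETV4AAA replicate 1 (0.0507). The log2 change of TIE1 was 5.37 without eGFP replicate 1 and 3.55 without eGFP replicate 2.

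**Figure D3:**
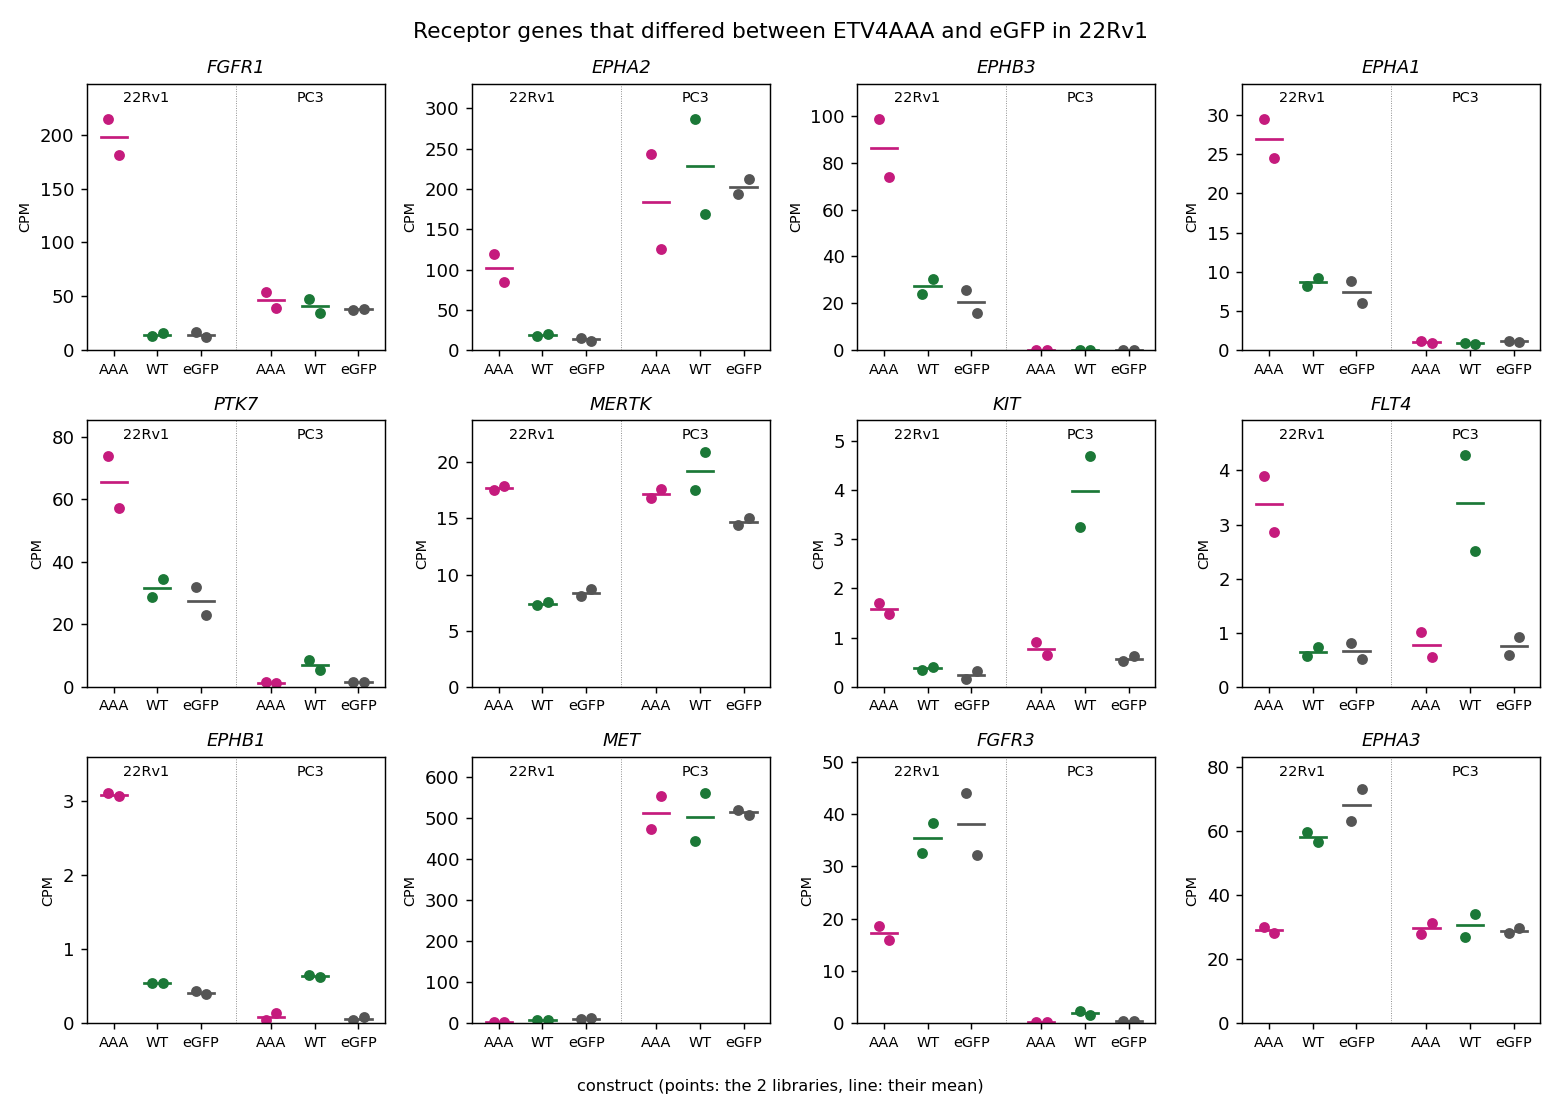
CPM of 12 receptor genes that differed between ETV4AAA and eGFP in 22Rv1 (left in each panel), with the same genes in PC3 (right); points are the 2 libraries of a group and lines their mean, and each panel has its own scale. FGFR1 reaches 215 and 181 CPM in 22Rv1 ETV4AAA, MET is near 0 in 22Rv1 on the scale of PC3, and FGFR3 and EPHA3 are lower in 22Rv1 ETV4AAA than in 22Rv1 eGFP.

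With ETV4WT in 22Rv1, no receptor gene passed: 0 of the 44 were called in either direction, 5 had an unadjusted p under 0.05 with edgeR, and DESeq2 and limma-voom also called 0. Over all genes, 1.06% were called higher and 0.439% lower. The lowest adjusted p was that of MET, at 8.19 and 9.17 CPM in ETV4WT, against 11.1 and 12.9 CPM in eGFP (-0.47 ± 0.15 SE, adjusted p = 0.176). FGFR1 had 13.1 and 15.6 CPM in ETV4WT, within the 16.4 and 12.4 CPM of eGFP, and EPHA2 had 17.7 and 20.5 CPM in ETV4WT and 15.4 and 11 CPM in eGFP. A p that misses the threshold does not show that the groups were alike. ETV4 itself was raised in these libraries (3.95 ± 0.37 SE, adjusted p = 0.000156).

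The direct comparison of the constructs in 22Rv1 gave 15 genes higher and 3 lower in ETV4AAA than in ETV4WT, with 13.9% of all genes called higher and 9.62% lower. The median log2 difference was 0.44 over the receptor genes and -0.03 over all genes. The difference in ETV4 between the constructs did not pass (-0.37 ± 0.33 SE, adjusted p = 0.471). FGFR1 had 215 and 181 CPM in ETV4AAA, against 13.1 and 15.6 CPM in ETV4WT (3.79 ± 0.22 SE, adjusted p = 1.65e-07). EPHA2 had 119 and 84.7 CPM in ETV4AAA and 17.7 and 20.5 CPM in ETV4WT (2.41 ± 0.33 SE, adjusted p = 0.000197). TIE1 had 137 and 100 counts in ETV4AAA and 8 and 4 in ETV4WT (4.39 ± 0.4 SE, adjusted p = 6.61e-06). All 3 stood apart from ETV4WT by far more than the libraries of a group did from each other. ALK had 64 counts over the ETV4AAA libraries and 1 over the ETV4WT libraries, a ratio of 69.7 (95% interval 12.1 to 2790). The other genes higher were EPHB1, EPHB3, EPHA1, EPHA5, EPHA6, KIT, FLT4, PDGFRA, MERTK, PTK7 and ROR1, with log2 differences from 1.01 for EPHA5 to 2.49 for EPHB1. MET (-1.31 ± 0.16 SE), FGFR3 (-1.03 ± 0.21 SE) and EPHA3 (-1 ± 0.15 SE) were lower. This comparison and that with eGFP share the ETV4AAA libraries. Calls were lost without ETV4AAA replicate 1 or ETV4WT replicate 1 for EPHA5 (adjusted p = 0.0886 and 0.0932), EPHB3 (0.0568 and 0.0729) and PTK7 (0.0986 and 0.0999), and without ETV4AAA replicate 2 for FGFR3 (0.0574). TIE1 stood at 4.99 without ETV4WT replicate 1.

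In PC3, the libraries labelled ETV4WT had other receptor genes raised, among them the VEGF receptor FLT1, the FGF receptors FGFR2 and FGFR3, the collagen receptor DDR2 and KIT, while DDR1, TYRO3 and several ephrin-B receptors were lower. Of the 44 genes tested against eGFP, 14 were higher and 6 lower. Of all genes tested, 12.7% were called higher and 10.7% lower, so that 54.4% of all calls were higher. With upper-quartile scaling, which shifted the median of all genes by 0.148, that share was 69.2%. It was 47.4% with the offset for GC content and 47.8% with the replicate number as a block. The median log2 change was 0.29 over the receptor genes and 0 over all genes.

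Both VEGF receptors in the list rose. FLT1 had 6.88 and 8.8 CPM in PC3 ETV4WT, against 0.705 and 0.473 CPM in PC3 eGFP, a 13.2-fold change (log2 3.72 ± 0.3 SE, adjusted p = 6.73e-06). FLT4 had 4.29 and 2.51 CPM in ETV4WT and 0.584 and 0.924 CPM in eGFP (2.18 ± 0.36 SE, adjusted p = 0.00103). The lowest ETV4WT library was above the highest eGFP library in both. The 7 endothelial markers summed to 19.5 CPM in each PC3 ETV4WT library and to 14.8 and 13.2 CPM in eGFP, where CDH5 and EMCN were at 0 and PECAM1 was the highest. In PC3 ETV4AAA, where neither FLT1 nor FLT4 was called against eGFP, they summed to 23.2 and 26.1 CPM. The 10 luminal markers summed to 587 and 475 CPM in ETV4WT and to 782 and 819 CPM in eGFP. Most of these sums came from HOXB13, with a mean of 441 CPM in ETV4WT and 605 CPM in eGFP. The part of both marker lists in the results was not tested. Of the FGF receptors, FGFR2 had 7.92 and 8.48 CPM in ETV4WT and 1.71 and 1.31 CPM in eGFP (2.44 ± 0.25 SE, adjusted p = 3.18e-05). FGFR3 had 2.4 and 1.55 CPM in ETV4WT and 0.382 and 0.473 CPM in eGFP (2.21 ± 0.29 SE, adjusted p = 0.00022). FGFR1 had 47.3 and 34.6 CPM in ETV4WT and 37.7 and 38.3 CPM in eGFP, groups that overlapped.

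DDR2 had 10.4 and 14.4 CPM in PC3 ETV4WT, against 2.92 and 2.71 CPM in eGFP (2.13 ± 0.21 SE, adjusted p = 2.74e-05). The other collagen receptor, DDR1, moved the other way, with 25.4 and 15.5 CPM in ETV4WT and 50.4 and 54.3 CPM in eGFP (-1.35 ± 0.27 SE, adjusted p = 0.00344). KIT had 3.25 and 4.7 CPM in ETV4WT and 0.523 and 0.623 CPM in eGFP (2.79 ± 0.28 SE, adjusted p = 3.24e-05). PTK7 had 8.59 and 5.21 CPM in ETV4WT and 1.43 and 1.55 CPM in eGFP (2.21 ± 0.27 SE, adjusted p = 0.000131), still below every 22Rv1 library. IGF1R had 20.3 and 20.4 CPM in ETV4WT and 11.7 and 11 CPM in eGFP (0.84 ± 0.18 SE, adjusted p = 0.00581). ROR2 and TIE1 were called higher at about 1 CPM or less: ROR2 had 55 and 47 counts in ETV4WT and 9 and 4 in eGFP, and TIE1 had 14 and 12 counts in ETV4WT and 2 in each eGFP library. RET, the GDNF-family receptor, had 29 counts over the ETV4WT libraries and 2 over the eGFP libraries, both in replicate 2, a ratio of 13.5 (95% interval 3.41 to 116).

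The EPH family again moved both ways, with 3 genes higher and 4 lower of 14. EPHA4 had 21 and 23.9 CPM in PC3 ETV4WT, against 8.35 and 8.38 CPM in eGFP (1.42 ± 0.17 SE, adjusted p = 0.000116). EPHA7 had 57.5 and 70.9 CPM in ETV4WT and 35.8 and 36 CPM in eGFP (0.84 ± 0.15 SE, adjusted p = 0.00176). EPHB1 had 35 and 31 counts in ETV4WT and 2 and 4 in eGFP (3.3 ± 0.44 SE, adjusted p = 0.000229). All 3 separated the groups. EPHB2 had 27.7 and 19.6 CPM in ETV4WT and 50.2 and 54.7 CPM in eGFP (-1.15 ± 0.24 SE, adjusted p = 0.0051). EPHB4 had 41.1 and 26.9 CPM in ETV4WT and 72.2 and 79.2 CPM in eGFP (-1.16 ± 0.26 SE, adjusted p = 0.00721). EPHB6 had 6.99 and 4.64 CPM in ETV4WT and 14.1 and 15 CPM in eGFP (-1.32 ± 0.3 SE, adjusted p = 0.00796), and EPHA10 had 1.56 and 1.05 CPM in ETV4WT and 3.38 and 3.25 CPM in eGFP. EPHA2 did not pass and its libraries overlapped, at 287 and 169 CPM in ETV4WT and 194 and 212 CPM in eGFP. TYRO3 had 14 and 8.6 CPM in ETV4WT and 27 and 29.1 CPM in eGFP (-1.31 ± 0.24 SE, adjusted p = 0.00233). MET, with 443 and 561 CPM in ETV4WT and 519 and 507 CPM in eGFP, AXL, with 11.8 and 9.12 CPM in ETV4WT and 10.6 and 10.4 CPM in eGFP, and RYK, with 92.6 and 108 CPM in ETV4WT and 108 and 111 CPM in eGFP, did not pass.

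The 6 genes that were lower in PC3 ETV4WT had GC contents of 53.1% to 63.2%, with a median of 60.8%, against 53.5% for all genes called lower. The 14 higher ones had a median of 52%, against 45.7% for all genes called higher. In all 6 the first ETV4WT library was higher than the second. Over all genes, the difference of replicate 1 minus replicate 2 had a Spearman correlation with GC content of 0.7 in PC3 ETV4WT, 0.66 in PC3 ETV4AAA and -0.29 in PC3 eGFP (23155 genes, which are not independent). In 22Rv1 it was 0.47 in ETV4AAA, -0.26 in ETV4WT and 0.6 in eGFP. The part of this in the results was not tested. Calls were lost without ETV4WT replicate 2 for EPHA10 (adjusted p = 0.0991), EPHB4 (0.0671), EPHB6 (0.0655) and TIE1 (0.0563). They were lost without eGFP replicate 2 for EPHA10 (0.0559), EPHB4 (0.0522), EPHB6 (0.0543), IGF1R (0.0648) and TIE1 (0.102), and without eGFP replicate 1 for EPHA10 (0.0611), RET (0.0508) and TIE1 (0.106). The log2 change of EPHB1 was 3.9 without eGFP replicate 2, and that of ROR2 was 3.48 without eGFP replicate 1.

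**Figure D4:**
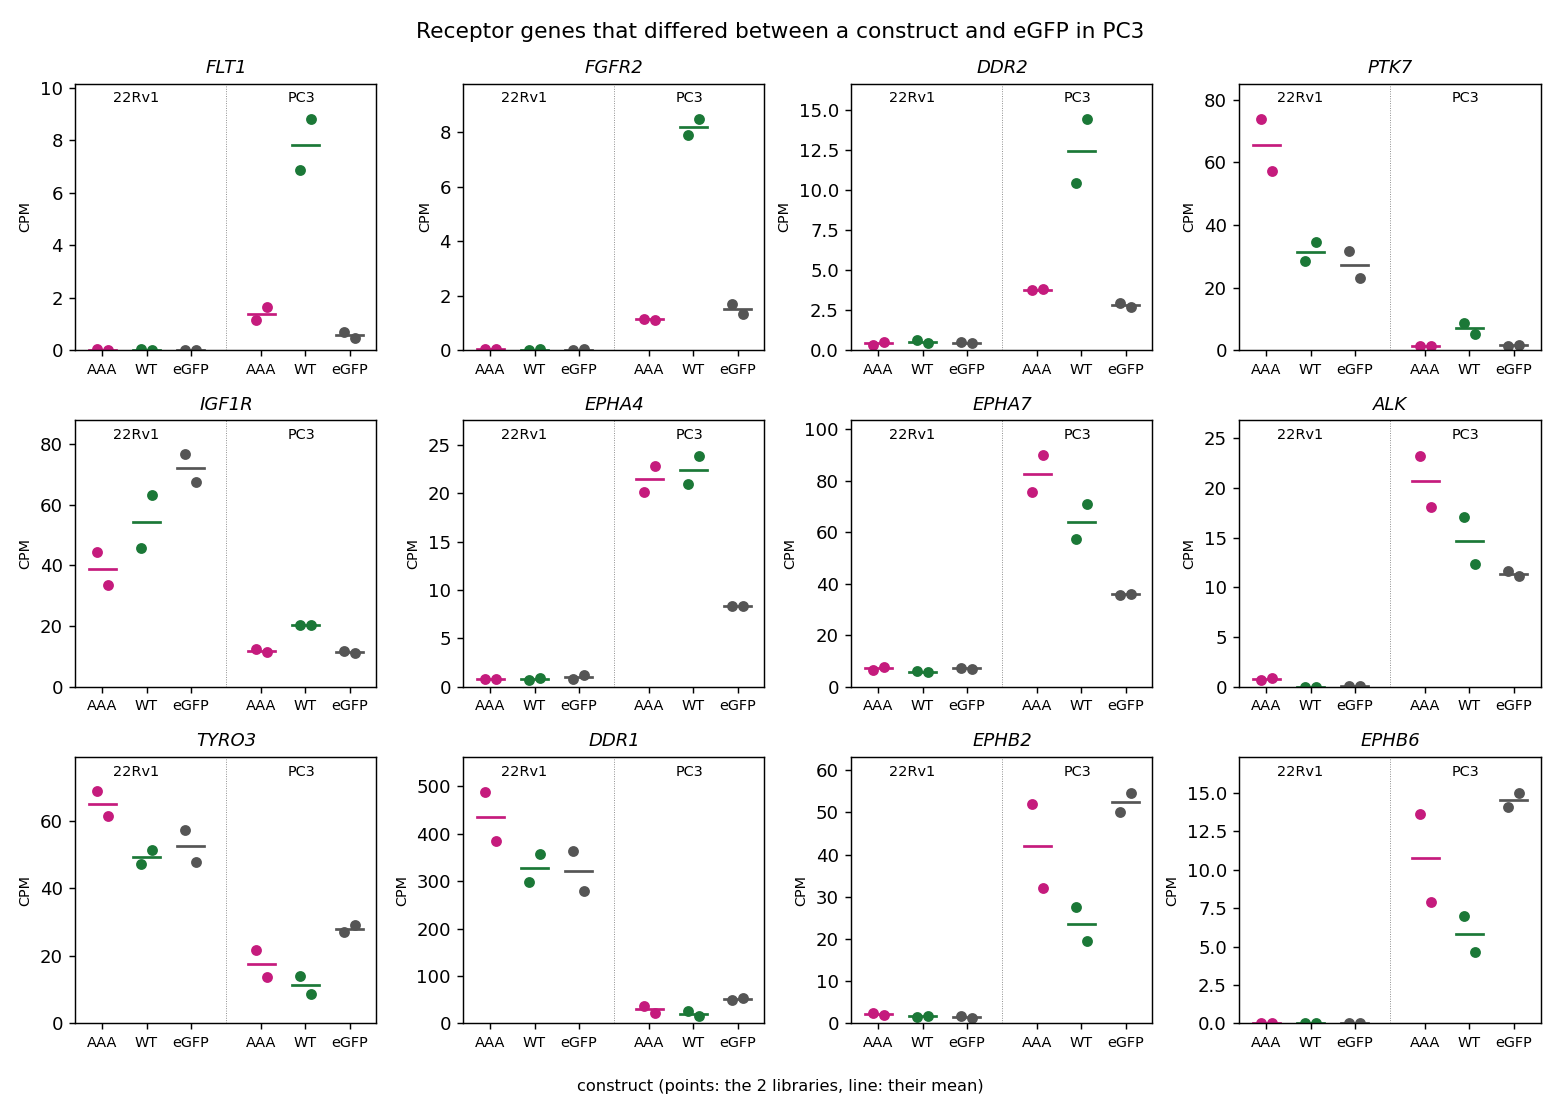
CPM of 12 receptor genes that differed between a construct and eGFP in PC3 (right in each panel), with the same genes in 22Rv1 (left); points are the 2 libraries of a group and lines their mean, and each panel has its own scale. FLT1, FGFR2, DDR2, PTK7 and IGF1R were called higher in PC3 ETV4WT and were not called in PC3 ETV4AAA, EPHA4 and EPHA7 were called in both, and the lower genes of the bottom row have a higher first than second library in both PC3 construct groups.

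In the PC3 libraries labelled ETV4AAA, 3 genes were higher than in eGFP and 0 lower, while 2.45% of all genes were called higher and 1.24% lower. At an unadjusted p under 0.05 there were 13 genes. DESeq2's Wald test called 7 and limma-voom 4. The median log2 change was -0.01 over the receptor genes and 0 over all genes. EPHA7 had 75.8 and 89.9 CPM in ETV4AAA, against 35.8 and 36 CPM in eGFP (1.21 ± 0.15 SE, adjusted p = 0.000904). EPHA4 had 20.2 and 22.8 CPM in ETV4AAA and 8.35 and 8.38 CPM in eGFP (1.36 ± 0.17 SE, adjusted p = 0.000986). ALK had 23.2 and 18.1 CPM in ETV4AAA and 11.6 and 11.1 CPM in eGFP (0.86 ± 0.21 SE, adjusted p = 0.0433), and lost its call without any 1 of the 4 libraries (0.0684 to 0.341). Next in order of adjusted p were TIE1 (2.65 ± 0.68 SE, adjusted p = 0.0553), FLT1 (1.22 ± 0.32 SE, 0.0672) and PDGFRA, at 36.9 and 42.7 CPM in ETV4AAA and 25.2 and 25.8 CPM in eGFP (0.64 ± 0.17 SE, 0.0707). The number of called genes was 10, with 4 higher and 6 lower, without ETV4AAA replicate 1, and 2 without ETV4AAA replicate 2 or without either eGFP library. These results share the eGFP libraries with those of PC3 ETV4WT.

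Set against PC3 ETV4WT, ETV4AAA was higher for 2 genes and lower for 11, with 3.65% of all genes called higher and 7.32% lower. The median log2 difference was -0.05 over the receptor genes and 0 over all genes. With upper-quartile scaling, which shifted the median of all genes by -0.113, 17% of all calls were higher in place of 33.3%. With the offset for GC content the share moved the other way, to 57.5%. FLT1 had 1.15 and 1.63 CPM in ETV4AAA, against 6.88 and 8.8 CPM in ETV4WT (-2.5 ± 0.27 SE, adjusted p = 9.39e-05). FGFR2 had 1.15 and 1.12 CPM in ETV4AAA and 7.92 and 8.48 CPM in ETV4WT (-2.85 ± 0.26 SE, adjusted p = 3.08e-05). DDR2 had 3.74 and 3.8 CPM in ETV4AAA and 10.4 and 14.4 CPM in ETV4WT (-1.71 ± 0.21 SE, adjusted p = 0.000216). KIT, PTK7, FGFR3, FLT4, ROR2, EPHB1, IGF1R and ROS1 were lower as well, by log2 differences from -0.78 for IGF1R to -3 for ROR2. PDGFRA was higher, at 36.9 and 42.7 CPM in ETV4AAA and 20.9 and 24.2 CPM in ETV4WT (0.82 ± 0.17 SE, adjusted p = 0.00951). EPHB2 was higher at 52 and 32.1 CPM in ETV4AAA and 27.7 and 19.6 CPM in ETV4WT (0.83 ± 0.24 SE, adjusted p = 0.0469). ETV4 had similar means in both groups (0.03 ± 0.33 SE, adjusted p = 1). EPHB2 lost its call without ETV4AAA replicate 1 (0.308) or ETV4WT replicate 2 (0.227) and under upper-quartile scaling (0.0578). PDGFRA lost it without ETV4AAA replicate 2 (0.0574) or ETV4WT replicate 1 (0.0565), IGF1R without ETV4AAA replicate 2 (0.0714) or ETV4WT replicate 2 (0.0511), and ROS1 without ETV4AAA replicate 2 (0.052) or ETV4WT replicate 2 (0.0593). EPHB1, at -2.81, stood at -2.13 without ETV4AAA replicate 1 and at -3.91 without ETV4AAA replicate 2, and ROR2 stood at -3.73 without ETV4AAA replicate 1.

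**Figure D5:**
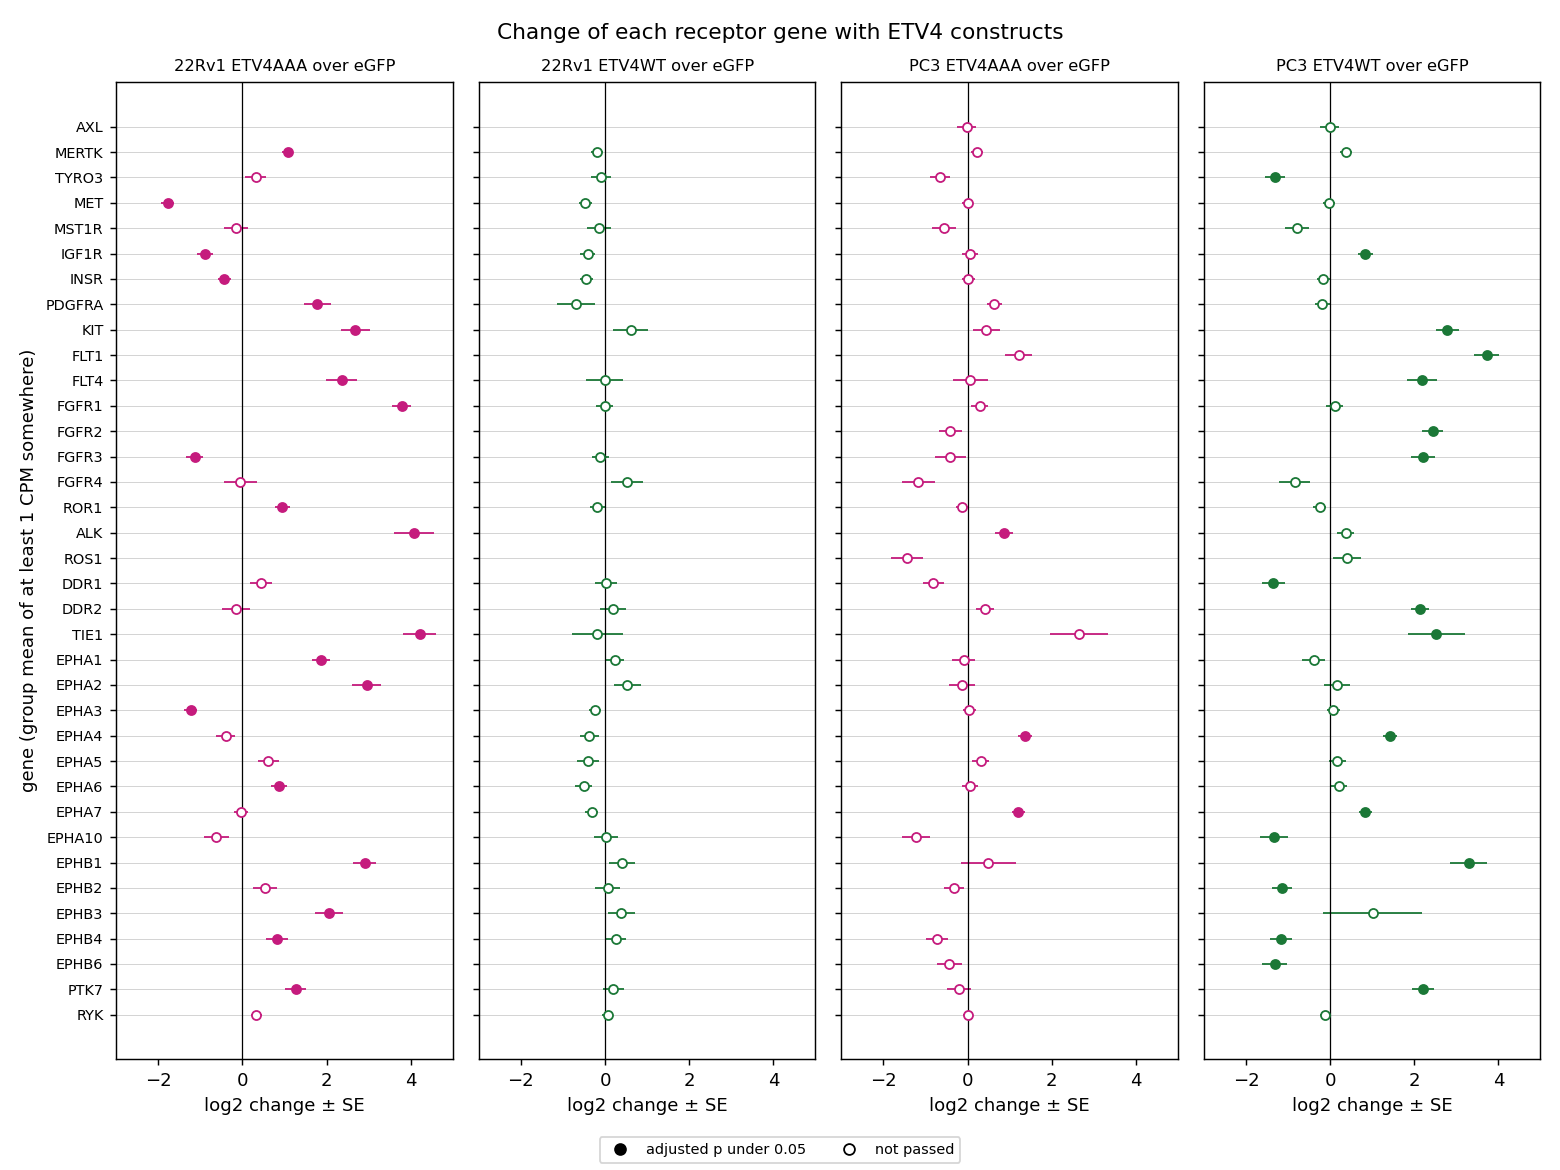
Log2 change ± SE of each receptor gene with a group mean of at least 1 CPM in any group, for each construct over eGFP in 22Rv1 (left pair) and PC3 (right pair); filled symbols have an adjusted p under 0.05, and a gene with 3 or fewer counts in either group of a comparison is left blank. Most filled symbols are in the 22Rv1 ETV4AAA and PC3 ETV4WT panels, and the 22Rv1 ETV4WT panel has none.

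Among the comparisons of a construct with eGFP, the 2 with the most calls, 22Rv1 ETV4AAA and PC3 ETV4WT, share no library. EPHB1, FLT4, KIT, PTK7 and TIE1 were higher in both, which is 5 genes, 31.2% of the 16 higher in 22Rv1 ETV4AAA and 35.7% of the 14 higher in PC3 ETV4WT. These shares are close to those of all 44 tested receptor genes, of which 31.8% were higher in PC3 ETV4WT and 36.4% in 22Rv1 ETV4AAA. Over all genes, 858 were higher in both, 21.2% of the 4054 higher in 22Rv1 ETV4AAA and 29% of the 2958 higher in PC3 ETV4WT. FGFR3 and IGF1R were lower in 22Rv1 ETV4AAA and higher in PC3 ETV4WT, and EPHB4 was higher in 22Rv1 ETV4AAA and lower in PC3 ETV4WT. No receptor gene was lower in both, out of 5 lower in 22Rv1 ETV4AAA and 6 lower in PC3 ETV4WT, numbers too small to say much. Among all genes, 593 were lower in both. That is 17.7% of those lower in 22Rv1 ETV4AAA and 23.9% of those lower in PC3 ETV4WT. In opposite directions, 395 were lower in 22Rv1 ETV4AAA and higher in PC3 ETV4WT, and 393 the other way round. The difference of the ETV4AAA effect between the lines passed for 16 genes, 11 with a higher and 5 with a lower log2 change in 22Rv1 than in PC3 (9.48% and 6.73% of all genes). FGFR1 changed by 3.49 ± 0.29 (SE) more on the log2 scale in 22Rv1 than in PC3, where it had 53.8 and 39.3 CPM in ETV4AAA and 37.7 and 38.3 CPM in eGFP. The difference of the ETV4WT effect passed for 13 genes, 3 with a higher and 10 with a lower change in 22Rv1 than in PC3 (4.92% and 7.57% of all genes). FGFR2 and FLT1, with at most 2 counts in any 22Rv1 library, were not among them.

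Of 61 listed ligands of these receptors, 47 were tested. In 22Rv1 ETV4AAA 14 were higher and 5 lower than in eGFP (median log2 change 0.03, and 0 over all genes), where 17.4% of all genes were called higher and 14.4% lower. HGF, the MET ligand, had 15.3 and 18.4 CPM in ETV4AAA, against 61.9 and 69.5 CPM in eGFP (-1.97 ± 0.15 SE, adjusted p = 1.32e-06), so receptor and ligand were both lower. ANGPT4, a ligand of TEK, had 24.6 and 20.8 CPM in ETV4AAA and 0.164 and 0.0206 CPM in eGFP (7.9 ± 0.51 SE, adjusted p = 2.87e-07), while TEK itself had 1 and 6 counts in ETV4AAA and 2 in each eGFP library. FGF1 and FGF5 were also higher, but at 1.82 to 2.97 CPM in ETV4AAA. KITLG, the KIT ligand, had 26.9 and 28.9 CPM in ETV4AAA and 9.12 and 8.82 CPM in ETV4WT (1.64 ± 0.16 SE, adjusted p = 1.2e-05). In 22Rv1 ETV4WT 1 ligand was higher and 1 lower than in eGFP, where 1.06% of all genes were called higher and 0.439% lower. ANGPT4 had 0.914 and 0.98 CPM in ETV4WT, and EFNB2, an ephrin-B, had 5.33 and 6.33 CPM in ETV4WT and 8.82 and 9.28 CPM in eGFP (-0.63 ± 0.14 SE, adjusted p = 0.0481).

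In PC3, 3 ligands were higher and 2 lower in ETV4AAA (median log2 change -0.16), and 13 were higher and 6 lower in ETV4WT (median 0.16), each against eGFP. Over all genes, the shares were 2.45% higher and 1.24% lower in ETV4AAA, and 12.7% higher and 10.7% lower in ETV4WT. KITLG had 116 and 134 CPM in PC3 ETV4AAA and 137 and 184 CPM in PC3 ETV4WT, against 48.2 and 43.6 CPM in PC3 eGFP. FGF1 had 12.2 and 14 CPM in ETV4AAA and 9.87 and 9.91 CPM in ETV4WT, against 2.88 and 2.99 CPM in eGFP. These 2 ligands were thus raised in all 4 construct libraries. VEGFA, a ligand of FLT1, had 115 and 99.7 CPM in ETV4WT and 48.9 and 49.6 CPM in eGFP (1.13 ± 0.16 SE, adjusted p = 0.000374), and 61.8 and 44.4 CPM in ETV4AAA. GDF15, which signals through GFRAL and RET, had 1.56 and 0.646 CPM in ETV4AAA, 25.7 and 16.8 CPM in ETV4WT and 7.51 and 7.44 CPM in eGFP. Without constructs, 23 ligands were higher and 14 lower in 22Rv1 eGFP than in PC3 eGFP (median log2 difference 0.86), with 34.9% of all genes called higher and 36% lower. HGF had 61.9 and 69.5 CPM in 22Rv1 and 0.403 and 0.43 CPM in PC3, the reverse of MET. VEGFC, the FLT4 ligand, had 1.52 and 2.04 CPM in 22Rv1 and 114 and 112 CPM in PC3, and WNT5A had 1.05 and 0.926 CPM in 22Rv1 and 24.2 and 22.2 CPM in PC3.

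Of 26 co-receptors and ligand-processing genes, 21 were tested, and 10 were higher and 2 lower in 22Rv1 ETV4AAA than in eGFP (median log2 change 0.37), where 17.4% of all genes were called higher and 14.4% lower. NRP2, a VEGF co-receptor, had 26.8 and 22.5 CPM in ETV4AAA, against 0.308 and 0.329 CPM in eGFP (6.26 ± 0.3 SE, adjusted p = 2.13e-08). NRP1 had 35.7 and 32.2 CPM in ETV4AAA and 13 and 13.4 CPM in eGFP (1.37 ± 0.12 SE, adjusted p = 4.06e-06). CD44, a MET co-receptor, had 430 and 427 CPM in ETV4AAA and 120 and 129 CPM in eGFP, and at 255 and 249 CPM it was the single gene of the list called in 22Rv1 ETV4WT (1.02 ± 0.11 SE, adjusted p = 0.000564). In PC3, 1 gene of the list was higher and 3 lower in ETV4AAA, and 3 were higher and 8 lower in ETV4WT (median -0.43). The shares of all genes were 2.45% higher and 1.24% lower in ETV4AAA, and 12.7% higher and 10.7% lower in ETV4WT. SDC1, a heparan sulfate carrier that binds growth factors, had 871 and 590 CPM in ETV4AAA and 695 and 489 CPM in ETV4WT, against 245 and 258 CPM in eGFP. FGFBP1, which carries FGFs, had 13.9 and 12.3 CPM in ETV4AAA and 5.43 and 4.18 CPM in ETV4WT, against 24.8 and 28.2 CPM in eGFP. In the eGFP libraries NRP1 had 13 and 13.4 CPM in 22Rv1 and 486 and 468 CPM in PC3, while ST14, a protease that activates HGF, had 85.6 and 57.2 CPM in 22Rv1 and 0.121 and 0.301 CPM in PC3.

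Of 42 adaptors and feedback regulators, 40 were tested, and 13 were higher and 3 lower in 22Rv1 ETV4AAA than in eGFP (median log2 change 0.1), beside 17.4% of all genes called higher and 14.4% lower. SOCS3, a feedback inhibitor of cytokine and growth factor signalling, had 14.2 and 12.1 CPM in ETV4AAA, against 0.287 and 0.165 CPM in eGFP (5.84 ± 0.3 SE, adjusted p = 3.59e-08). PTPRJ, a phosphatase of receptor tyrosine kinases, had 143 and 116 CPM in ETV4AAA and 55 and 54.4 CPM in eGFP (1.25 ± 0.14 SE, adjusted p = 3.58e-05). In 22Rv1 ETV4WT 0 were higher and 2 lower, GRB10, an adaptor of the insulin and IGF1 receptors, at 20.2 and 24 CPM in ETV4WT and 40 and 41.1 CPM in eGFP (-0.87 ± 0.12 SE, adjusted p = 0.00306), and SH2B3 at 1.44 and 1.53 CPM in ETV4WT and 2.65 and 2.35 CPM in eGFP. In PC3, 6 were higher and 0 lower in ETV4AAA, and 8 were higher and 4 lower in ETV4WT, beside 2.45% and 1.24% of all genes in ETV4AAA and 12.7% and 10.7% in ETV4WT. SOCS2 had 14.3 and 16.7 CPM in PC3 ETV4AAA and 17.2 and 18.6 CPM in PC3 ETV4WT, against 3.28 and 2.88 CPM in PC3 eGFP. LRIG1, a negative regulator of receptor tyrosine kinases, had 1.87 and 1.7 CPM in ETV4AAA, 6.24 and 6.01 CPM in ETV4WT and 1.67 and 2.02 CPM in eGFP.

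Some of these genes lie next to each other or share exons with other annotated genes. On chromosome 4, PDGFRA (54229097 to 54298247 in GRCh38, GENCODE 29) and KIT (54657918 to 54740715) lie 360 kb apart. Both were higher in 22Rv1 ETV4AAA, while in PC3 ETV4WT KIT rose and PDGFRA, at 20.9 and 24.2 CPM in ETV4WT and 25.2 and 25.8 CPM in eGFP, did not pass. On chromosome 13, FLT1 and FLT3 lie 200 kb apart, and FLT3 had at most 4 counts in any library. RYK and EPHB1 lie 347 kb apart on chromosome 3, and RYK passed in none of the 6 construct comparisons. Of the genes with shared exons, PDGFRA, ROS1 and DDR1 share them with a gene on the same strand, which counting by strand would not separate. The rest share them with genes on the opposite strand, and the labels do not state whether the counting used strand. Reads in shared exons therefore cannot be assigned with certainty. Such exons made up 15.8% of PDGFRA, 6.23% of MST1R, 5.44% of EPHA5, 4.67% of EPHA4 and 4.34% of ROS1, and at most 1.73% of any other of the 48 genes.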

How the data were processed

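PolyA RNA of 12 libraries was sequenced, per the labels' protocols. FastQC 0.11.9, STAR 2.5.3a and build GRCh38 are named in the submitters' processing notes, while no source used here names the counting program, its strand setting or its gene annotation. The authors deposited raw counts per Ensembl gene, whole numbers without normalization, and the depth of a library is the sum of its counts. Rows without a gene symbol held 0.0126% to 0.0203% of a library's counts. Gene positions came from GENCODE release 29, which holds 58039 of the 58302 identifiers (99.55%), and promoter windows from RefSeq GRCh38.p14.

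From the deposited counts, genes were kept by edgeR's filterByExpr by group, which left 23238. Levels in CPM were computed with TMM-scaled library sizes, and all 12 libraries entered a single quasi-likelihood model with a mean for each group in edgeR 4.0.16 (R 4.3.3), with a biological coefficient of variation of 0.149 and 6 residual degrees of freedom. The tests were 7 comparisons of 2 groups and 3 differences of an effect between lines. P-values were adjusted by Benjamini-Hochberg over all tested genes, and "called" or "passed" means an adjusted p under 0.05. Log2 changes are given with their standard errors, also where SE is the only mark. A group with 3 or fewer counts has an exact ratio of counts or a bound against 3 counts over the group in place of a fitted change. Intervals and floors cover counting error only. The steps were tested on simulated counts.

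The receptor genes, pathway lists and cell type markers were chosen with earlier results of these data known. Receptor genes called in any comparison and with a group mean of at least 5 CPM have their library values given for some comparisons but not for all. Others are given by ranges, counts or a family's account. Of each pathway list, up to 4 genes per comparison with the lowest adjusted p and a group mean of at least 5 CPM could be named. Alternatives were DESeq2 1.42.0 (size factors, and its Wald test), upper-quartile factors, unscaled totals, 2 other filters, limma-voom (limma 3.58.1), each line alone, the replicate number as a block, and leaving out libraries. An offset for GC content and a crossed block were added after seeing the data.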

Additional observations from a re-analysis of the deposited data

Results flagged for a closer look

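The effect of a construct on 25 receptor genes differed between the lines by a test of the difference itself, the log2 change in 22Rv1 minus that in PC3 (edgeR, adjusted p under 0.05 over all genes). Positive values mean a higher change in 22Rv1.

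For ETV4AAA over eGFP, the difference passed for 16 genes. FGFR1 (3.49), ALK (3.21), EPHA2 (3.09), FLT4 (2.29), KIT (2.23), EPHA1 (1.96), EPHB4 (1.56), PTK7 (1.45), DDR1 (1.25), ROR1 (1.07) and MERTK (0.85) had the higher change in 22Rv1. MET (-1.77), EPHA4 (-1.77), EPHA3 (-1.26), EPHA7 (-1.24) and IGF1R (-0.94) had the lower change there. The calls of DDR1, EPHB4, FLT4, IGF1R, MERTK and PTK7 were lost under at least 1 alternative.

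For ETV4WT over eGFP, it passed for 13 genes. EPHB4 (1.42), DDR1 (1.38) and TYRO3 (1.22) had the higher change in 22Rv1, where none of the 3 passed on its own. RET (-3.74, from 2 counts in PC3 eGFP), EPHB1 (-2.89), FGFR3 (-2.31), FLT4 (-2.19), KIT (-2.18), PTK7 (-2.01), DDR2 (-1.94), EPHA4 (-1.79), IGF1R (-1.25) and EPHA7 (-1.16) had the lower change there. The number of genes was 6 without PC3 eGFP replicate 1 and 7 without 22Rv1 ETV4WT replicate 1, and the calls of DDR1, EPHB1, EPHB4, FLT4, KIT, RET and TYRO3 were lost under at least 1 alternative. With the GC offset, FGFR3 stood at -2.97, FLT4 at -2.84, DDR1 at 0.75 and EPHB4 at 0.83.

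For ETV4AAA over ETV4WT, it passed for 18 genes, 16 higher and 2 lower, with 13% of all genes called higher and 7.94% lower. ALK (5.32), EPHB1 (5.29), FLT4 (4.48), KIT (4.41), TIE1 (4.26), FGFR1 (3.61), PTK7 (3.46), EPHA8 (3.37), EPHA2 (2.72), PDGFRA (1.65), FGFR3 (1.58), EPHA6 (1.54), MERTK (1.42), DDR2 (1.36), EPHA1 (1.35) and ROR1 (1) had the higher difference in 22Rv1. MET (-1.34) and EPHA3 (-0.95) had the lower difference there. The value of ALK rests on 1 count in 22Rv1 ETV4WT and that of EPHA8 on 3 counts in PC3 ETV4AAA. The calls of DDR2, EPHA1, EPHA8, FGFR3 and PDGFRA were lost under at least 1 alternative. The 3 contrasts share libraries and are not independent.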

How the results depend on the processing

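A receptor gene was called in 160 pairs of gene and comparison. The alternatives gave 2256 values for them, of which 2099 kept direction and call, 157 kept direction but not the call and 0 reversed, and 118 of the 160 were called under every alternative run on them. Counts moved by over 1.5 times in 4 comparisons, and the cause was not tested. PC3 ETV4AAA against eGFP had 3 calls, and 6 with DESeq2 size factors, 5 with upper-quartile factors, 12 without a filter, 5 with a floor of 1 CPM, 7 with DESeq2's Wald test, 7 with the replicate block, 13 with the crossed block, 10 with the GC offset and 2 to 10 when single libraries were left out. Over all genes PC3 ETV4AAA had 858 calls against eGFP, and 842 with upper-quartile factors and 868 with the replicate block. The all-gene number was 2051 with the GC offset and 4286 with the crossed block. PC3 ETV4AAA against ETV4WT had 13 calls and 22 with the GC offset, beside 2550 and 6297 over all genes. 22Rv1 ETV4WT against eGFP had 0 calls, and 1 without a filter, 4 with the crossed block and 3 with the GC offset. Over all genes it had 348 calls, and 904 without a filter, 1905 with the crossed block and 2417 with the GC offset. The difference of the ETV4WT effect between lines had 13 calls and 6 to 16 when single libraries were left out. Its share of higher calls over all genes was 24.4% with upper-quartile factors in place of 39.4%, with a median shift of -0.185. That share was 53.9% with the GC offset and 51% with the replicate block.

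Replicate numbers did not pair the libraries throughout: deviations of same-numbered libraries correlated at 0.82 between the PC3 constructs but between -0.37 and 0.5 elsewhere. The main test of PC3 ETV4AAA against ETV4WT left this shared deviation out. With the replicate block, that comparison had 2517 calls over all genes, and 2550 in the main test. That block is shared with the PC3 eGFP libraries, whose deviations correlated at -0.3 with those of each PC3 construct. It thus does not isolate the deviation that the constructs share, and the near-equal counts do not show what leaving it out did. The crossed block was not run on this comparison. With the replicate block, 22Rv1 ETV4AAA had 20 calls against eGFP, where INSR lost its call, and 18 against ETV4WT, and PC3 ETV4WT had 21. The GC offset and the crossed block were chosen after seeing the data. With 2 libraries a group, changes at a few counts are the least certain.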
